A study of Mus musculus with 18 samples.

Results

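The genes described here make, break down and sense prostaglandin E2 (PGE2), and they were measured by RNA-Seq in the colonic epithelium of mice with colitis and dysplasia. They were chosen by symbol: 10 of the 55453 gene names in the count tables, which are *Pla2g4a*, *Ptgs1*, *Ptgs2*, *Ptges*, *Ptges2*, *Ptges3*, *Hpgd*, *Ptger2*, *Ptger3* and *Ptger4*. All 10 were listed in every library and all 10 passed the filter on low counts, which left 20787 genes to test.

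PGE2 is made in steps. A phospholipase A2 frees arachidonic acid from the membrane, the cyclooxygenases encoded by *Ptgs1* and *Ptgs2* turn it into prostaglandin H2, and the PGE synthases turn that into PGE2. PGE2 acts on cell surface receptors (EP receptors, encoded by the *Ptger* genes) until it is taken up and oxidized by 15-hydroxyprostaglandin dehydrogenase, the product of *Hpgd*. In the colon PGE2 is known for its part in mucosal repair and inflammation, and the cyclooxygenases are the targets of aspirin and related drugs.

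The samples came from female Swiss Webster mice that all received the colon carcinogen azoxymethane (AOM) at 7 weeks of age and then, from 9 weeks, 4 cycles of dextran sulfate sodium (DSS), an agent that injures the colonic lining. A cycle was 7 days on 2% DSS and then 14 days on plain water. The mice ate chow with 2 mg/kg folic acid (FA) until 11 weeks of age and chow with 0 or 8 mg/kg FA for the next 16 weeks, and colons were taken at 27 weeks. Non-dysplastic epithelium (ND) or polypoid dysplasia (P) was cut by laser microdissection from fixed, embedded tissue, which gave the groups 0ND (n = 4), 8ND (n = 5), 0P (n = 4) and 8P (n = 5). Every group had thus been exposed to AOM and DSS, so the ND libraries are colitic tissue and not healthy colon. Whether an ND and a P library came from the same mouse is not given in the sources used here. The p-values below set differences between groups against the spread between these libraries only. The main fit treats all libraries as independent, which would not hold if ND and P libraries shared mice.

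Total counts on genes ran from 3500947 to 17048524 per library. Levels are given as CPM, counts relative to the size of the library after TMM scaling, which corrects for differences in library composition. They are given as CPM per kb of annotated exons wherever genes are set against each other, apart from the ratio of *Ptgs2* to *Hpgd*. A call means an adjusted p below 0.05 in edgeR's quasi-likelihood test over all tested genes. Epithelial markers such as *Epcam* and *Krt8* were present throughout, with 10 markers summing to 3176 to 6286 CPM per library, though 3 of the 10 were called lower and 1 higher in 0P vs 0ND and 6 lower and 1 higher in 8P vs 8ND. Of 12 fibroblast and matrix markers 5 were higher and 1 lower in 0P vs 0ND, and 2 higher and 1 lower in 8P vs 8ND. Smooth muscle markers were also present and were lower in P, with 10 of 10 called lower in both diets. They summed to 1128 to 3388 CPM in ND and 335 to 891 CPM in P. The 10 B and plasma cell markers summed to 2522 to 10674 CPM in ND and 488 to 3190 CPM in P. Of these, 4 were called lower in 0P vs 0ND and 6 in 8P vs 8ND, with 0 called higher. Of 7 tested neutrophil markers 5 were higher and 1 lower in P in both diets. Of 9 tested mast cell markers 7 were higher and 1 lower in 0P vs 0ND. In 8P vs 8ND 5 of them were higher and 1 lower. As these are bulk samples, fewer cells of a type and less RNA per cell cannot be told apart.

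In genome build mm10 with GENCODE M21 genes, 2 members were neighbours. *Pla2g4a* (chr1:149829618-149961290, minus strand) and *Ptgs2* (chr1:150100031-150108227, plus strand) lay 138.7 kb apart, head to head. *Hpgd* was at chr8:56294585-56321043 and *Ptger3* at chr3:157566892-157645888, both on the plus strand. *Ptger4* (chr15:5206661-5244187, minus strand) shared 1015 bp of exon with the pseudogene Gm15937 on the opposite strand, so its counts are less certain. *Ptges3* has the copy Ptges3-ps, whose counts came to 2.46% of those of *Ptges3*.

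Stretches of the promoters of 3 members are shown, *Hpgd* and *Ptger3* because both were lower in P in both diets and *Ptgs2* because it had the widest spread between libraries. Each runs 5′ to 3′ on the plus strand of GRCm38.p6 from 250 bases before to 30 bases after the RefSeq gene start, and capitals mark the motifs searched.
Hpgd, chr8:56294302-56294581: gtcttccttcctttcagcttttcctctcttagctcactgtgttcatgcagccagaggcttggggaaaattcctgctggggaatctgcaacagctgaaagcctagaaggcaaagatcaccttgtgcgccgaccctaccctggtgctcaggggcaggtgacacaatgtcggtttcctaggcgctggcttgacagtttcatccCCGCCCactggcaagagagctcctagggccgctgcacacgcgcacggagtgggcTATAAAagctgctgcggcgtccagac
Ptger3, chr3:157566626-157566905: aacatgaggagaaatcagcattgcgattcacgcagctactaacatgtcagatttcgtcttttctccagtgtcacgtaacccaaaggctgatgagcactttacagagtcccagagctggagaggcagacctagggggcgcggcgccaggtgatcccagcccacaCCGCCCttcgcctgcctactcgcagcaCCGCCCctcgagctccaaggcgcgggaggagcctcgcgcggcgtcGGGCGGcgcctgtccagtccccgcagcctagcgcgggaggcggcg
Ptgs2, chr1:150099781-150100060: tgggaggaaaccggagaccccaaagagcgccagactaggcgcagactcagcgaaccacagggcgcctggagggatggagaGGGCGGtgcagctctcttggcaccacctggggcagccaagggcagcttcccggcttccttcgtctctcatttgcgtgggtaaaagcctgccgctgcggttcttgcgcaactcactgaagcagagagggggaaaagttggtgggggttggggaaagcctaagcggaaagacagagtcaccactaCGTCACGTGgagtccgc
The motifs were the TATA box (TATAAA), the GC box (GGGCGG), the CCAAT box (CCAAT), the core of the cAMP response element (TGACG) and the E-box CACGTG, each read on both strands. In the *Hpgd* stretch the TATA box began 29 bases before the GENCODE start, but just after the RefSeq start that defines the stretch. A GC box lay on the opposite strand. *Ptger3* had 3 GC boxes and none of the other motifs. In the *Ptgs2* stretch the cAMP response element core, read on the opposite strand as CGTCA, overlapped the E-box. Both fell after the annotated start, but where transcription starts in these samples was not measured. Of 32851 RefSeq promoter windows of 300 bases, 13.6% held the TATA box, 35.7% the GC box, 37.4% the CCAAT box, 20.8% the cAMP response element core and 7.15% the E-box. Over all 10 members the GC box was found in 6, the CCAAT box in 3, and the other motifs in 2 each. These matches are letters in a window and were not tested as binding sites.

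The comparison of P with ND asks which genes differ between dysplasia and non-dysplastic colitic epithelium. In mice fed no FA, *Hpgd*, *Ptger3* and *Pla2g4a* were lower in 0P than in 0ND, and *Ptgs2*, *Ptges* and *Ptges3* were higher. These are 6 of 10 members, while 31.6% of all tested genes were called in this comparison, 15.9% higher and 15.7% lower. In mice fed 8 mg FA, *Hpgd*, *Ptger3*, *Pla2g4a* and *Ptger4* were lower in 8P than in 8ND and *Ptges3* was higher. That is 5 of 10 members, against 28.2% of all tested genes, 13.9% higher and 14.3% lower. Changes of at least 2-fold were called for 3 members in 0P vs 0ND (*Hpgd*, *Ptger3*, *Ptgs2*) and for 2 in 8P vs 8ND (*Hpgd*, *Ptger3*), where 15.9% and 12.4% of all tested genes met the same rule. The median log2 fold change of the members was -0.11 in 0P vs 0ND and -0.27 in 8P vs 8ND, beside -0.03 and 0.00 for all tested genes. Colonocyte and smooth muscle markers also differed between P and ND, as given beside the members concerned, and their part in these differences was not tested. The CPM of the groups did not overlap for 5 members in each diet, beside 32.3% of all tested genes in 0P vs 0ND and 17.2% in 8P vs 8ND.

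**Figure D1:**
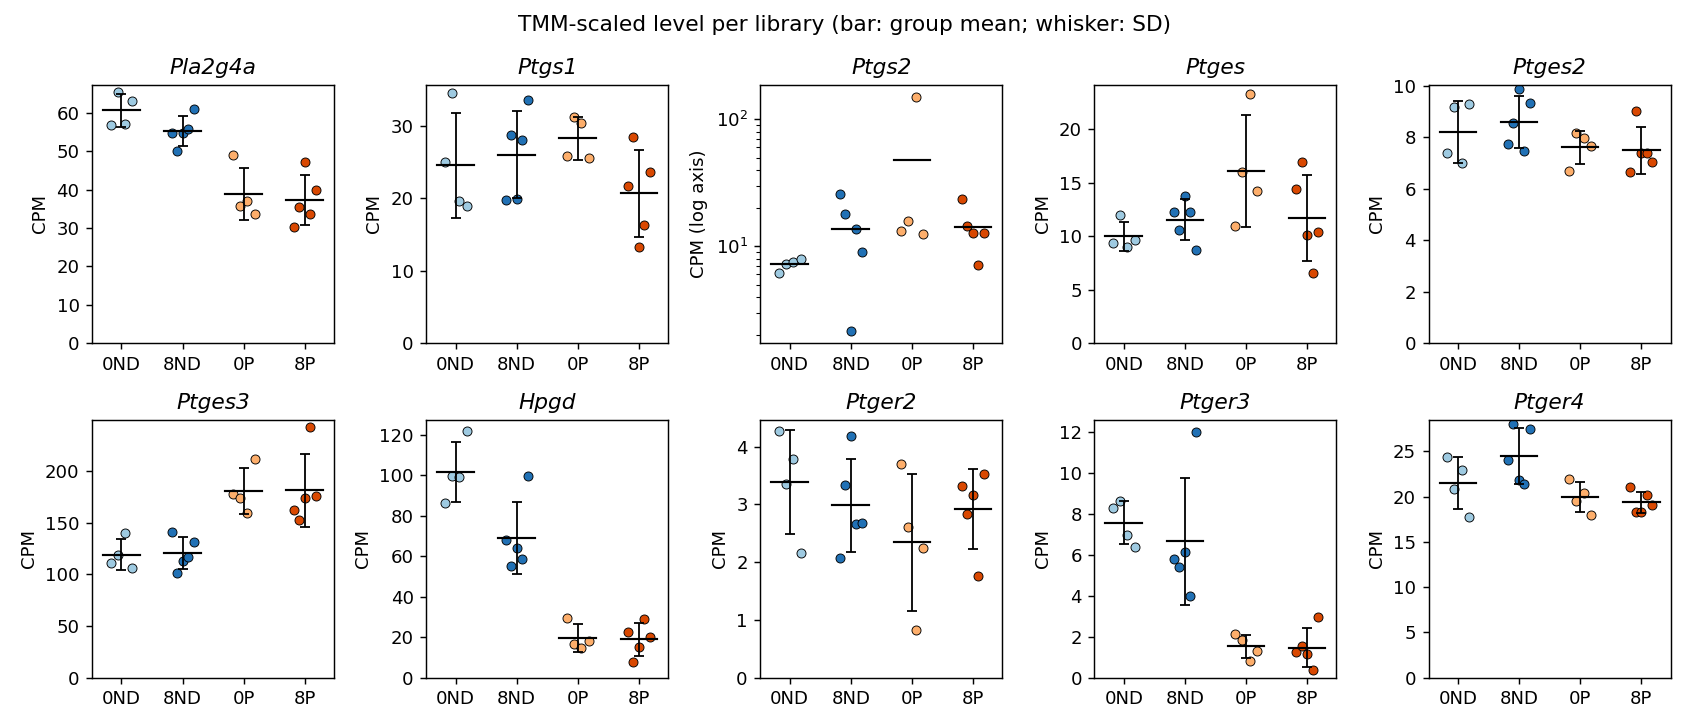
TMM-scaled CPM of each member (y axis from 0, except *Ptgs2* on a log axis) in the 18 libraries by group (x axis). Points are libraries, bars are group means and whiskers are SD, not drawn for *Ptgs2*. *Hpgd* and *Ptger3* sit lower in all 9 P libraries than in all 9 ND libraries, and library 0P 3 stands alone for *Ptgs2* at 151 CPM.

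Synthesis starts with the release of arachidonic acid. *Pla2g4a* encodes the cytosolic phospholipase A2 that does this in response to calcium. Its levels were 56.8, 65.6, 57.2 and 63.2 CPM in 0ND and 49.0, 35.7, 37.2 and 33.7 CPM in 0P. In 8ND they were 54.8, 50.1, 54.8, 55.8 and 61.0 CPM, and in 8P 30.2, 35.4, 47.2, 33.6 and 39.9 CPM. All 9 P libraries were below all 9 ND libraries. The log2 fold change was -0.64 ± 0.14 (SE; adjusted p = 0.00132, edgeR) in 0P vs 0ND and -0.57 ± 0.12 (adjusted p = 0.00180, edgeR) in 8P vs 8ND, which is 1.56-fold and 1.48-fold lower. Both calls were kept in all 26 alternative fits.

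Of the cyclooxygenases, *Ptgs1* was not called in any comparison. This constitutively expressed form ranged from 18.8 to 34.6 CPM in 0ND, 19.8 to 33.6 CPM in 8ND, 25.6 to 31.2 CPM in 0P and 13.2 to 28.4 CPM in 8P, and the groups overlapped in every comparison. Its log2 difference was 0.21 ± 0.23 in 0P vs 0ND (adjusted p = 0.54, edgeR) and -0.34 ± 0.21 in 8P vs 8ND (adjusted p = 0.247, edgeR), so neither difference was told apart from the spread between libraries.

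*Ptgs2*, the inducible form also called Cox-2, stood at 6.18, 7.23, 7.46 and 7.90 CPM in 0ND. In 0P it was 13.2, 15.8, 151 and 12.5 CPM, so each 0P library was above each 0ND library and 0P 3 was far above the rest. The log2 fold change was 2.73 ± 0.82 (adjusted p = 0.0185, edgeR). Without 0P 3 it was 0.97 ± 0.51 and no longer a call (adjusted p = 0.175, edgeR), with the other 3 libraries at 13.8 ± 1.72 CPM (SD, n = 3), still all above 0ND. The adjusted p was also above 0.05 in 5 of the other 25 alternative fits, among them the fit without 0ND 1 (2.65, adjusted p = 0.0524, edgeR).

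In mice fed 8 mg FA, *Ptgs2* ranged widely within ND itself. The 8ND libraries held 25.6, 17.8, 2.15, 13.6 and 8.94 CPM, and the 8P libraries 23.6, 14.5, 12.8, 7.18 and 12.8 CPM. The lowest and the highest *Ptgs2* level of all ND libraries were thus found in the same group, and 8P lay within its range. The log2 difference of 8P from 8ND was 0.07 ± 0.70 (adjusted p = 0.957, edgeR). At 2 SE either side this spans -1.33 to 1.46, which takes in a difference of more than 2-fold upward and downward. The P vs ND difference in mice fed 8 mg FA minus that in mice fed none was -2.66 ± 1.06 (adjusted p = 0.429, edgeR), which was not called. Without 0P 3 it was -0.89 ± 0.66 (adjusted p = 0.715, edgeR).

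The genes whose log2 CPM followed *Ptgs2* most closely over the 18 libraries were *Il11* (Pearson r = 0.90), which encodes a cytokine of the interleukin-6 family, *Ereg* (r = 0.83), which encodes the epidermal growth factor receptor ligand epiregulin, and *Nr4a2* (r = 0.81), an immediate early nuclear receptor. In 0P 3 they reached 44.0, 183 and 38.3 CPM, above the level of the same gene in each of the other 17 libraries. These genes were picked for following *Ptgs2* over the same libraries, 0P 3 among them, so high levels in 0P 3 are partly built in. The libraries also share depth and group structure, so these values are a description. Within groups, after the group means were taken out but with 0P 3 kept, r was 0.92, 0.85 and 0.85. For mast cells, 0P 3 had the highest marker sum of the 0P libraries (191 CPM, the others 62.6 to 102 CPM), and for neutrophils the lowest (32.4 CPM, the others 39.0 to 49.1 CPM). Their part in the *Ptgs2* level of 0P 3 was not tested.

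**Figure D2:**
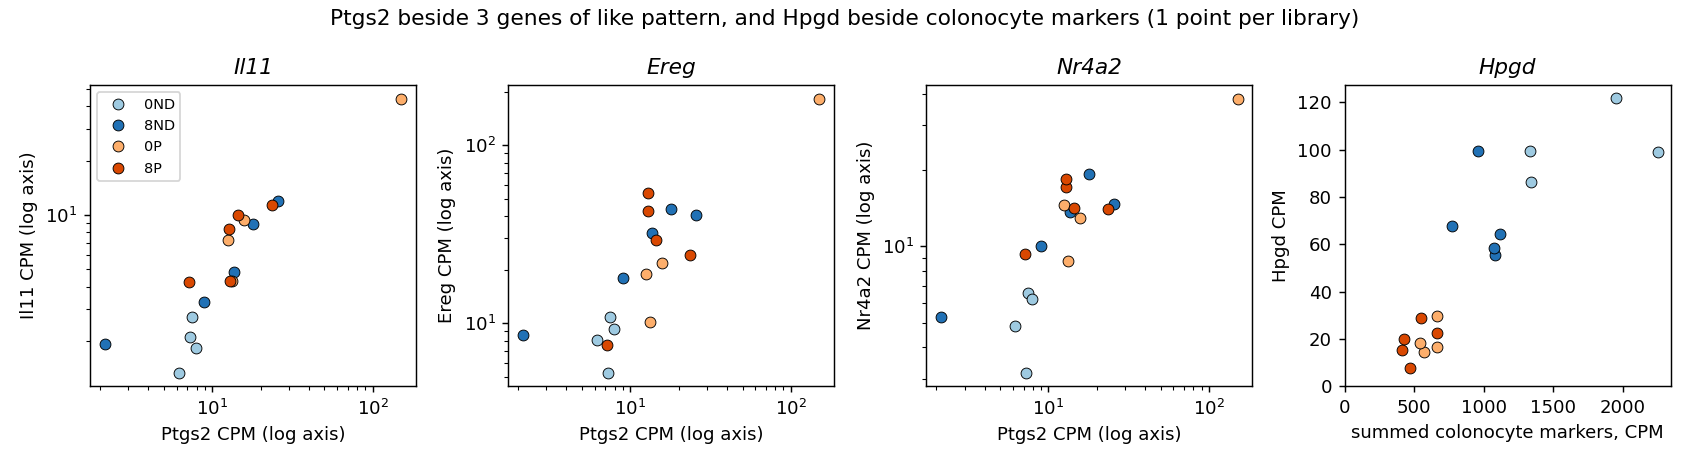
CPM of *Il11*, *Ereg* and *Nr4a2* against *Ptgs2* (log axes), and of *Hpgd* against the summed CPM of 10 absorptive colonocyte markers (linear axes from 0), with 1 point per library, coloured by group. Library 0P 3 is the point at the upper right of the *Ptgs2* panels, and P libraries hold the low end of both axes in the *Hpgd* panel.

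Of the PGE synthases, the inducible microsomal enzyme encoded by *Ptges* was 9.37, 11.99, 9.00 and 9.64 CPM in 0ND and 10.9, 16.0, 23.3 and 14.2 CPM in 0P. The groups overlapped through 0P 1, and 0P 3 was again the highest. The log2 fold change of 0.69 ± 0.26 was at the edge of the threshold (adjusted p = 0.0483, edgeR), and 17 of 26 alternative fits put it above 0.05, including the fit without 0P 3 (0.49 ± 0.25, adjusted p = 0.169, edgeR). In mice fed 8 mg FA, *Ptges* was 8.73 to 13.7 CPM in 8ND and 6.54 to 17.0 CPM in 8P, with a log2 difference of 0.02 ± 0.23 (adjusted p = 0.961, edgeR).

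*Ptges3* encodes the cytosolic PGE synthase, a protein better known as p23, a co-chaperone of Hsp90. It was 111, 119, 140 and 106 CPM in 0ND and 178, 174, 159 and 212 CPM in 0P. In 8ND it was 141, 101, 113, 117 and 131 CPM, and in 8P 162, 153, 174, 243 and 176 CPM. Each P library was above each ND library. The log2 fold change was 0.60 ± 0.14 (adjusted p = 0.00315, edgeR) in 0P vs 0ND and 0.59 ± 0.13 (adjusted p = 0.00204, edgeR) in 8P vs 8ND, or 1.52-fold and 1.504-fold, and both calls were kept in all 26 alternative fits. The gene most like it over the 18 libraries was *Ptma* (Pearson r = 0.96), which encodes prothymosin alpha. *Ptges2*, the membrane-associated synthase, ranged only from 6.64 to 9.87 CPM over all 18 libraries and was not called in any comparison.

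The enzyme that starts PGE2 breakdown showed the smallest adjusted p among the members in both comparisons of P with ND. *Hpgd* was 86.3, 99.5, 99.2 and 122 CPM in 0ND and 29.6, 16.4, 14.4 and 18.2 CPM in 0P. In 8ND it was 67.9, 55.3, 64.2, 58.5 and 99.4 CPM, and in 8P 22.5, 7.62, 15.2, 28.9 and 20.0 CPM. The highest P library (29.6 CPM) was thus well below the lowest ND library (55.3 CPM). *Hpgd* fell 5.16-fold in 0P vs 0ND (log2 fold change -2.37 ± 0.31, adjusted p = 2.22e-05, edgeR) and 3.65-fold in 8P vs 8ND (-1.87 ± 0.27, adjusted p = 9.29e-05, edgeR). All 26 alternative fits kept both calls. The difference between these 2 falls was 0.50 ± 0.40 (adjusted p = 0.681, edgeR), which was not called.

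Like *Hpgd*, the summed markers of the absorptive colonocyte, the mature surface cell of the colon, were lower in P than in ND on the same diet. Of 9 tested colonocyte markers, 7 were lower in P in both diets and *Slc9a3* was higher. The median log2 fold change of the 9 was -2.50 in 0P vs 0ND and -2.73 in 8P vs 8ND. The 10 markers summed to 1332 to 2251 CPM in 0ND, 775 to 1118 CPM in 8ND, 543 to 667 CPM in 0P and 415 to 665 CPM in 8P. None was at 0 in all libraries of a group. In no group did the library with the highest *Hpgd* level also have the highest marker sum. In 0P this rests on nearly equal sums, 665 CPM in 0P 1 (highest for *Hpgd*) and 667 CPM in 0P 2. With so few libraries per group this is only a description. In 8ND, for example, *Hpgd* was highest in 8ND 5 (99.4 CPM, marker sum 960 CPM). The marker sum was highest in 8ND 3 (1118 CPM, *Hpgd* 64.2 CPM). The genes most like *Hpgd* over the 18 libraries were *Maoa* (Pearson r = 0.97), which encodes monoamine oxidase A, *Ociad2* (r = 0.97) and *Acsm3* (r = 0.96), which encodes a mitochondrial acyl-CoA synthetase. The part of colonocyte abundance in the *Hpgd* difference was not tested.

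Of the 3 EP receptors among the members, *Ptger3* was lower in P in both diets, *Ptger4* in the mice fed 8 mg FA, and *Ptger2* in neither. *Ptger3* encodes EP3, which mostly lowers cyclic AMP, and it was 8.28, 8.64, 6.99 and 6.39 CPM in 0ND and 2.11, 1.85, 0.823 and 1.31 CPM in 0P. In 8ND it was 5.81, 5.39, 6.12, 4.00 and 12.02 CPM, and in 8P 1.28, 1.52, 1.14, 0.352 and 2.97 CPM. No P library reached the lowest ND library. Counts in P were only 5 to 32 reads per library, so single values there are imprecise. *Ptger3* fell 4.86-fold in 0P vs 0ND (log2 fold change -2.28 ± 0.43, adjusted p = 4.84e-04, edgeR) and 4.71-fold in 8P vs 8ND (-2.24 ± 0.39, adjusted p = 3.17e-04, edgeR), and all 26 alternative fits kept both calls. Its nearest genes by pattern were *Fam83c* (Pearson r = 0.98), *Hsd11b2* (r = 0.96), the enzyme that inactivates glucocorticoids, and *Sspn* (r = 0.96), which encodes the muscle membrane protein sarcospan. Library 8ND 5, the highest for *Ptger3*, also had the highest sum of smooth muscle markers in 8ND, 2174 CPM against 1128 to 1351 CPM in the others. In 0ND and 8P, too, a single library was highest for both, 0ND 2 (marker sum 3388 CPM) and 8P 5 (691 CPM). In 0P, *Ptger3* was highest in 0P 1 and the marker sum in 0P 4. The part of smooth muscle in the *Ptger3* values was not tested.

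*Ptger4* encodes EP4, which raises cyclic AMP. It was 24.3, 20.8, 22.97 and 17.8 CPM in 0ND and 21.9, 19.5, 20.4 and 17.9 CPM in 0P, and the groups overlapped (log2 difference -0.11 ± 0.13, adjusted p = 0.567, edgeR). In 8ND it was 24.1, 28.0, 21.8, 21.4 and 27.4 CPM and in 8P 21.01, 18.3, 18.3, 20.1 and 19.1 CPM, so the groups were apart by a narrow margin. The log2 fold change of -0.34 ± 0.12 (adjusted p = 0.0321, edgeR), 1.27-fold lower, was a call in 15 of 26 alternative fits and not in the other 11. *Ptger2*, which encodes EP2, the other receptor that raises cyclic AMP, was low throughout at 0.823 to 4.27 CPM (6 to 67 reads per library). It was not called in any comparison, with log2 differences of -0.51 ± 0.35 in 0P vs 0ND (adjusted p = 0.289, edgeR) and -0.05 ± 0.31 in 8P vs 8ND (adjusted p = 0.928, edgeR).

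**Figure D3:**
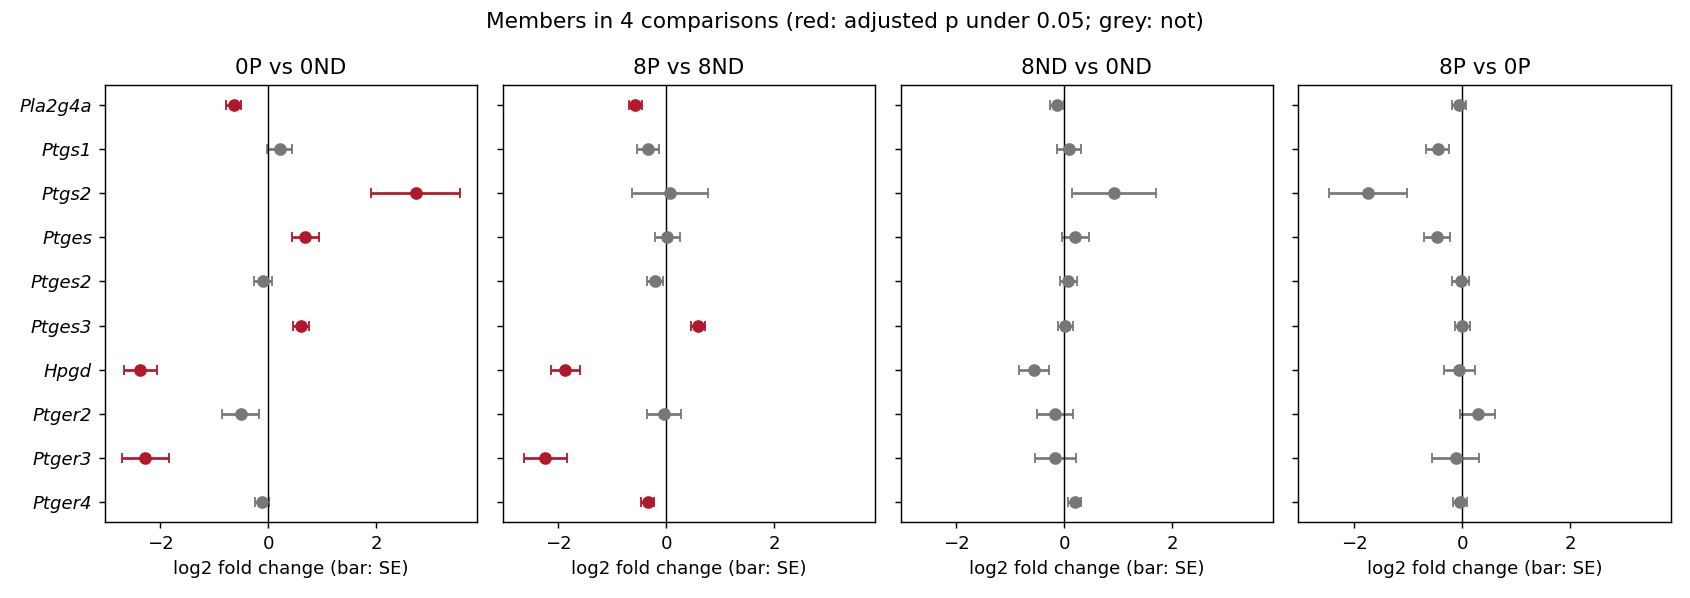
Log2 fold change of each member (x axis) in 4 comparisons, with bars of 1 SE, red where the adjusted p was below 0.05 in edgeR and grey where it was not. Red points appear in the 2 comparisons of P with ND, 6 in 0P vs 0ND and 5 in 8P vs 8ND, and not in the comparisons of FA dose.

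Per length, *Hpgd* and *Ptges3* were the most abundant members in ND and *Ptges3* in P. In 0ND *Hpgd* had the highest mean, 60.4 ± 8.73 CPM per kb (SD, n = 4), and its range overlapped that of *Ptges3* at 53.7 ± 6.85 CPM per kb. Next came *Pla2g4a* at 9.50 and *Ptgs1* at 6.31 CPM per kb, which overlapped each other and lay below the first pair. *Ptger2* was last at 0.654 CPM per kb. In 0P *Ptges3* led at 81.6 ± 10.1 CPM per kb (n = 4) and did not overlap *Hpgd*, which had 11.7 ± 4.04 CPM per kb. *Ptger3* had moved from above *Ptger2* in 0ND to the last place, at 0.268 CPM per kb, with ranges that overlapped. The order in 8P was led by the same pair, *Ptges3* at 81.9 ± 16.0 CPM per kb and *Hpgd* at 11.2 ± 4.75 CPM per kb (n = 5).

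**Figure D4:**
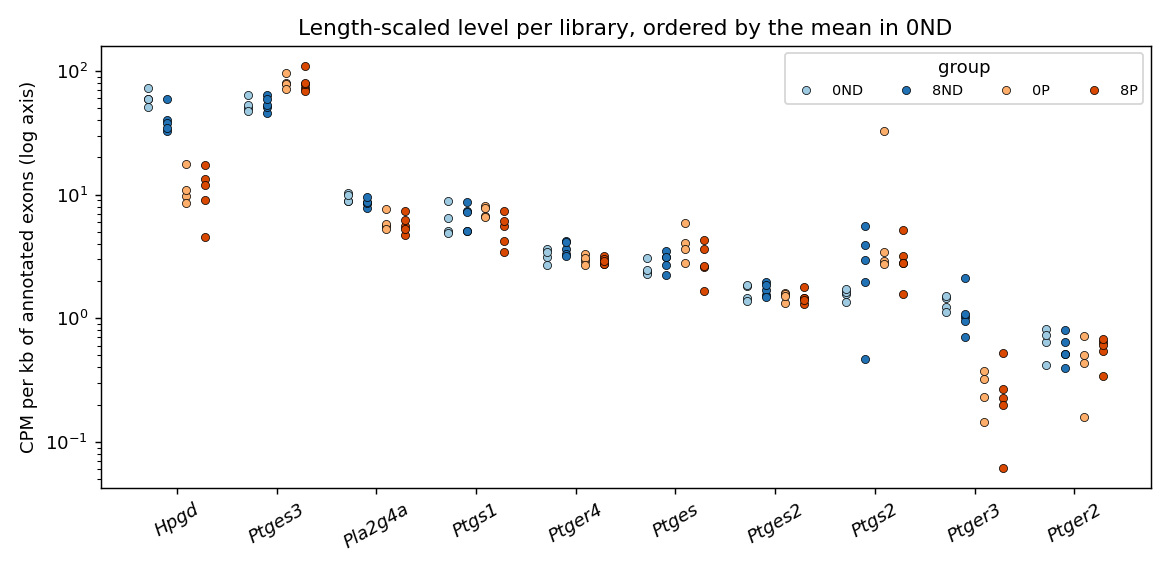
CPM per kb of annotated exons (log axis) of each member, ordered along the x axis by the mean in 0ND, with 1 point per library coloured by group. *Hpgd* and *Ptges3* lead in ND, and in P *Ptges3* alone stays at the top, with means of 81.6 and 81.9 CPM per kb.

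The balance between members within a library is given as a description, since it rests on values already tested. Of the summed CPM per kb of *Ptger2*, *Ptger3* and *Ptger4*, *Ptger3* made up 25.6% ± 2.60 in 0ND (SD, n = 4) and 7.06% ± 2.02 in 0P (n = 4). In mice fed 8 mg FA it made up 20.9% ± 6.21 in 8ND and 6.67% ± 4.01 in 8P (n = 5 each). *Ptger4* made up most of the rest, with means of 62.0% (0ND), 68.3% (8ND), 81.1% (0P) and 78.4% (8P). The ratio of *Ptgs2* to *Hpgd* CPM, the inducible enzyme of synthesis over the enzyme of breakdown, was 0.0649 to 0.0752 in 0ND, 0.0334 to 0.377 in 8ND, 0.446 to 10.5 in 0P and 0.248 to 1.90 in 8P. This ratio was not scaled by exon length (4580 bp for *Ptgs2*, 1683 bp for *Hpgd*). It compares libraries and does not show which gene was more abundant. In 0P every ratio was above the highest ratio of any ND library, whereas 8P overlapped 8ND.

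The second question is whether the FA dose changed these genes within the same kind of tissue. No member was called in 8ND vs 0ND, where the smallest adjusted p was 0.54 (*Hpgd*, edgeR) and no member had an unadjusted p under 0.05. The background was low, with 0.0481% of all tested genes called. DESeq2 and limma-voom also called 0 members. The interaction called 0 members as well, in a background of 0% of all tested genes, and 1 (*Ptgs2*) had an unadjusted p under 0.05. In 8P vs 0P no member was called by edgeR, DESeq2 or limma-voom, and 1 (*Ptgs2*) had an unadjusted p under 0.05, with 0% of all tested genes called by edgeR. Neither comparison had a member whose groups did not overlap, beside 3.94% and 2.25% of all tested genes.

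Some members still lay apart in part. For *Hpgd*, 4 of the 5 8ND libraries (55.3 to 67.9 CPM) were below every 0ND library, and 8ND 5 (99.4 CPM) was among them. Its log2 difference was -0.56 ± 0.28 (adjusted p = 0.54, edgeR), beside colonocyte marker sums that were lower in every 8ND library than in every 0ND library, as given above. None of the 9 tested colonocyte markers was called in 8ND vs 0ND, and their median log2 difference was -0.20. *Ptgs2* was 0.92 ± 0.78 higher on the log2 scale in 8ND, where 4 of 5 libraries were above all 0ND libraries and 8ND 3 (2.15 CPM) was below them (adjusted p = 0.783, edgeR). In 8P vs 0P its log2 difference was -1.74 ± 0.72 (adjusted p = 0.472, edgeR), and without 0P 3 it was 0.03. For the members with the smallest SE in 8ND vs 0ND the intervals were narrower. At 2 SE, *Ptger4* lay between -0.05 and 0.44 on the log2 scale, *Pla2g4a* between -0.39 and 0.13, and *Ptges3* between -0.25 and 0.29.

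Other genes of prostanoid metabolism, a list of 20 in the files of which 17 were tested, also differed between P and ND. In 0P vs 0ND 4 were higher and 5 lower, where 15.9% of all tested genes were called higher and 15.7% lower. In 8P vs 8ND 2 were higher and 6 lower, beside 13.9% and 14.3% of all tested genes. The list had median log2 fold changes of -0.41 and -0.53, beside -0.03 and 0.00 for all tested genes. Besides the genes described next, *Tbxas1* was higher and *Ptgr2* lower in 0P, *Ptgir* and *Tbxa2r* were lower in 8P, and *Akr1b3* was lower in both, though 16 and 9 of 26 alternative fits did not call it. The *Ptgr2* call was lost in 6 of 26 alternative fits (adjusted p up to 0.103), among them those without 0ND 2, 0ND 4, 0P 2 or 0P 3. That of *Tbxas1* was lost without 0P 2 (adjusted p = 0.0568, edgeR), and that of *Ptgir* in 3 fits, among them those without 8ND 5 or 8P 1 (adjusted p up to 0.0620). Both prostaglandin transporters on the list changed. *Slco2a1*, which encodes the carrier that brings PGE2 into the cell where *Hpgd* acts, was 79.8, 75.7, 97.7 and 88.4 CPM in 0ND and 38.1, 39.0, 64.6 and 42.1 CPM in 0P. It was 61.1, 65.2, 64.6, 59.0 and 51.2 CPM in 8ND and 36.3, 50.6, 30.5, 22.7 and 46.8 CPM in 8P. *Slco2a1* was thus lower in each P group than in the ND group on the same diet, with log2 fold changes of -0.90 ± 0.21 (adjusted p = 0.00228, edgeR) and -0.69 ± 0.18 (adjusted p = 0.00815, edgeR). Its 8ND libraries were also all below its 0ND libraries, but the log2 difference of -0.50 ± 0.19 was not called (adjusted p = 0.359, edgeR).

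*Abcc4*, which encodes an exporter of PGE2 and cyclic nucleotides, went the other way, from 31.2 ± 3.07 CPM in 0ND to 129 ± 28.2 CPM in 0P (n = 4 each) and from 41.7 ± 11.0 CPM in 8ND to 124 ± 20.3 CPM in 8P (n = 5 each). The log2 fold changes were 2.05 ± 0.19 (adjusted p = 1.00e-06, edgeR) and 1.57 ± 0.17 (adjusted p = 5.70e-06, edgeR). *Ptgr1*, whose product reduces 15-keto-prostaglandins, the step after *Hpgd*, rose from 9.91 to 31.0 CPM in 0P (1.65 ± 0.28, adjusted p = 1.69e-04, edgeR) and from 12.6 to 22.1 CPM in 8P (0.80 ± 0.24, adjusted p = 0.0187, edgeR), the latter with overlapping groups and not called in 5 of 26 alternative fits. The carbonyl reductase genes *Cbr1*, whose product can turn PGE2 into prostaglandin F2 alpha, and *Cbr3* were lower in P in both diets. *Cbr1* was 46.1 CPM in 0ND, 22.6 CPM in 0P, 33.3 CPM in 8ND and 19.3 CPM in 8P. *Ptgfrn*, a partner of the prostaglandin F2 receptor, rose 1.60-fold in 0P (adjusted p = 0.00186, edgeR) and was not called in 8P vs 8ND (1.15-fold, adjusted p = 0.276, edgeR).

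**Figure D5:**
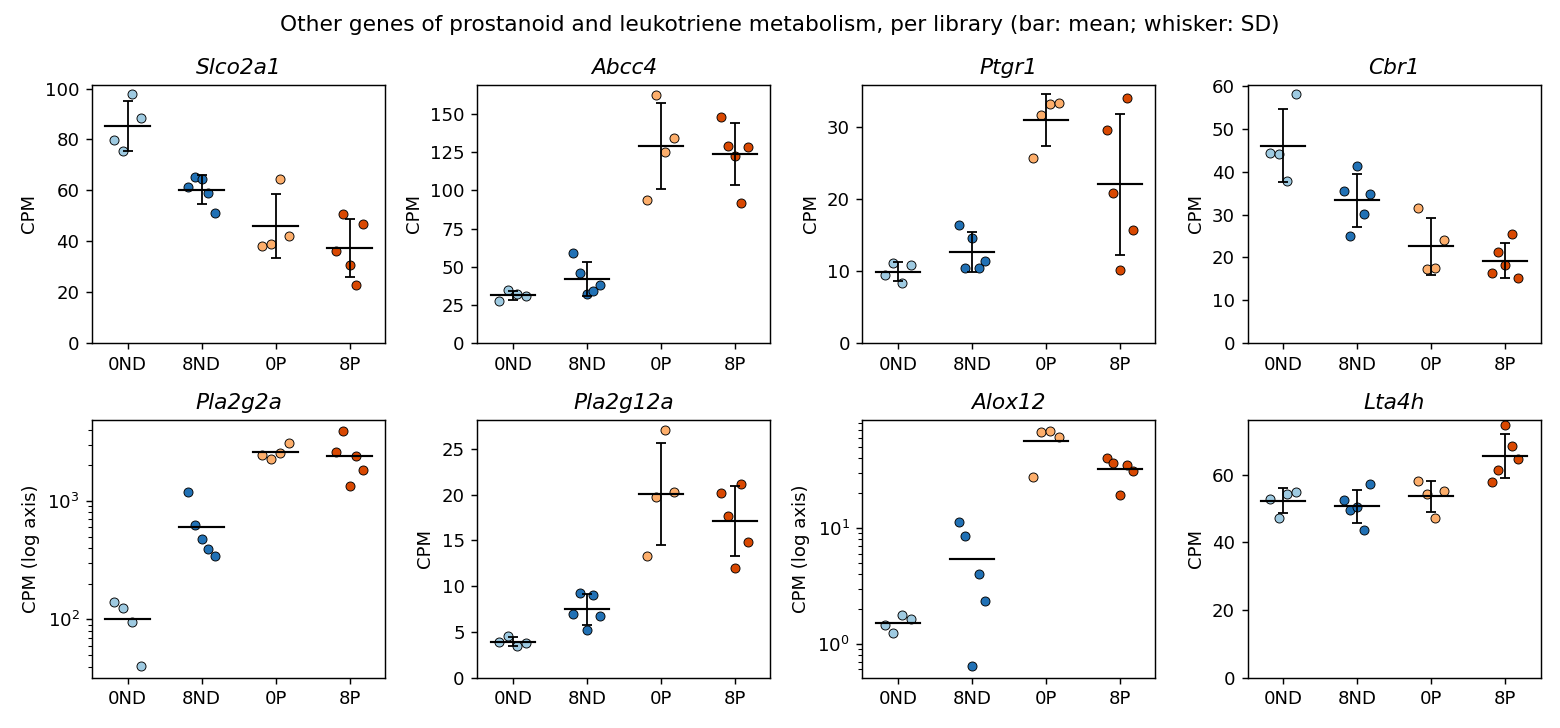
TMM-scaled CPM of 8 further genes of prostanoid and leukotriene metabolism (y axis, log for *Pla2g2a* and *Alox12*) by group, with 1 point per library, bars at the mean and whiskers of SD on the linear panels. *Abcc4* and *Pla2g2a* are higher and *Slco2a1* lower in P than in ND on the same diet, and *Pla2g2a* in 8ND (341 to 1187 CPM) lies between 0ND and P.

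Other phospholipase A2 genes went in both directions. Of 20 others in the files, 14 were tested, of which 5 were higher and 4 lower in 0P vs 0ND and 5 higher and 3 lower in 8P vs 8ND, where 31.6% and 28.2% of all tested genes were called in either direction. The secreted enzyme *Pla2g2a* was 141, 125, 95.3 and 40.5 CPM in 0ND and 2431, 2258, 2536 and 3082 CPM in 0P. In 8ND it was 1187, 631, 480, 396 and 341 CPM, and in 8P 2607, 3871, 1334, 2378 and 1836 CPM. Each group but the pair of P groups was apart from the others. It rose 25.7-fold in 0P vs 0ND (log2 fold change 4.68 ± 0.47, adjusted p = 3.50e-06, edgeR) and 3.96-fold in 8P vs 8ND (1.99 ± 0.37, adjusted p = 8.65e-04, edgeR). It was also the only gene of the 3 pathway lists that edgeR called in a comparison of FA dose, 6.06-fold higher in 8ND than in 0ND (2.60 ± 0.42, adjusted p = 0.0328, edgeR), a call that 12 of 26 alternative fits did not keep. In the same comparison DESeq2 also called *Pla2g12a* (adjusted p = 0.0288), *Alox12* (adjusted p = 0.0269) and *Alox15* (adjusted p = 0.0116). The fit without 8ND 3 also called *Pla2g12a* and *Alox12* (adjusted p = 0.0473 and 0.0409, edgeR), and the fit to only the groups compared called *Pla2g4c* (adjusted p = 0.0205, edgeR). DESeq2 called the interaction for *Pla2g2a* (-2.70, adjusted p = 4.29e-04) and *Alox12* (-2.61, adjusted p = 0.0342). *Pla2g12a*, *Pla2g2f*, *Pla2g6* and *Pla2g7* were also higher in P in both diets, and *Pla2g2c*, *Pla2g10* and *Pla2g3* lower (the last not called in 0P vs 0ND in 6 of 26 alternative fits). The *Pla2g6* call in 8P vs 8ND was lost without 8ND 4, 8ND 5 or 8P 2 (adjusted p up to 0.0601). *Pla2g12a* averaged 3.92 CPM in 0ND and 20.1 CPM in 0P, and *Pla2g10* 13.5 and 4.99 CPM. *Pla2g16* was lower in 0P vs 0ND.

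Among 16 genes of the lipoxygenase and leukotriene branch, which uses the same arachidonic acid, 12 were tested. In 0P vs 0ND 4 were higher and 1 lower, and in 8P vs 8ND 4 were higher and 0 lower. These are 5 and 4 of 12 genes, beside 31.6% and 28.2% of all tested genes called in either direction. *Alox12*, which encodes a 12-lipoxygenase, rose from 1.53 ± 0.232 to 56.1 ± 19.3 CPM in 0P (n = 4 each; log2 fold change 5.18 ± 0.60, adjusted p = 1.09e-05, edgeR) and from 5.37 ± 4.43 to 32.4 ± 8.04 CPM in 8P (n = 5 each; 2.58 ± 0.47, adjusted p = 6.36e-04, edgeR). *Lta4h*, which encodes leukotriene A4 hydrolase, was 50.7 CPM in 8ND and 65.5 CPM in 8P (0.37 ± 0.10, adjusted p = 0.00718, edgeR) and 52.3 and 53.7 CPM in 0ND and 0P (adjusted p = 0.831, edgeR). *Ephx1*, an epoxide hydrolase, was higher in P in both diets, by 2.18-fold and 1.96-fold. So was *Alox12e*, a gene of very low level, at 0.0712 CPM in 0ND and 1.14 CPM in 0P. The gene lower in 0P was *Ltb4r2*, which encodes a leukotriene B4 receptor, with a log2 fold change of -0.88 ± 0.32 (adjusted p = 0.0430, edgeR) that 13 of 26 alternative fits did not call. *Alox15* reached 24.5 CPM in 0P from 0.652 CPM in 0ND (adjusted p = 0.00493, edgeR), but in the mice fed 8 mg FA its 8ND libraries averaged 9.13 ± 14.2 CPM and the difference was not called (adjusted p = 0.26, edgeR).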

How the data were processed

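Laser-microdissected epithelium was profiled in 18 libraries, each from 40 ng of RNA. The authors deposited tables of raw read counts, 1 per library. By the study's methods, Bowtie placed the reads on mm10 and HTSeq counted them. Which versions and strand option they used is not given in the sources used here, so a gene cannot be told apart from one that overlaps it on the other strand. Entries that name no gene were left out of library sizes. They held 22.0 to 40.7% (no gene), 40.1 to 62.2% (not unique) and 0.220 to 0.384% (ambiguous) of the reads. Totals of 3500947 to 17048524 counts limit the precision for low genes such as *Ptger2* and *Ptger3*.

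The test was edgeR 4.0.16 in R 4.3.3, with TMM scaling, filterByExpr (minimum count 10), a single robust quasi-likelihood fit over the 4 groups and Benjamini-Hochberg adjustment over 20787 genes. An SE is the absolute log2 fold change over the square root of F. Alternatives were DESeq2 1.42.0, limma-voom (limma 3.58.1), RLE size factors, library totals, no low count filter, only the groups compared, libraries left out, and the replicate number as a block. Scripts were tested on simulated data. Levels per length used GENCODE M21 exons, in which 54512 of 55453 names were found. Promoter entries in RefSeq were found for all 10 members.

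The members and lists were chosen with earlier results of these data known. Of each pathway list, up to 6 called genes with the smallest p were to be named. *Akr1b3*, *Ptgr2*, *Tbxas1*, *Ptgir*, *Tbxa2r*, *Pla2g16*, *Pla2g4c*, *Pla2g6* and *Pla2g7* fall outside this rule and were named after their values were seen. Likeness is the Pearson correlation of log2 CPM (prior count 2), with up to 3 genes per member, leaving out unnamed gene models. Marker sums are sums of CPM.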

Additional observations from a re-analysis of the deposited data

Results flagged for a closer look

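In 4 of 40 sets, each being 1 member in 1 group, a single library lay apart from the others by Dixon's test at the 95% level. Chance flags about 1 in 20 groups. *Ptgs2* in 0P 3 was 151 CPM, with the other 0P libraries at 12.5 to 15.8 CPM. *Ptges3* in 8P 4 was 243 CPM, with the other 8P libraries at 153 to 176 CPM. In 8ND 5, *Hpgd* was 99.4 CPM against 55.3 to 67.9 CPM in the other 8ND libraries, and *Ptger3* was 12.02 CPM against 4.00 to 6.12 CPM. Leaving out 8P 4 or 8ND 5 did not end the calls of *Ptges3*, *Hpgd* or *Ptger3* in 8P vs 8ND.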

How the results depend on the processing

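The 11 calls of members were recomputed under 26 alternatives each, which gave 286 values. Of these, 252 stayed past the threshold and 34 did not, 0 changed direction, and 0 calls were added for members without one. The 34 belonged to *Ptges* (17) and *Ptgs2* (6) in 0P vs 0ND and *Ptger4* in 8P vs 8ND (11). For *Ptgs2* in 0P vs 0ND these were limma-voom (1.64, adjusted p = 0.152), no low count filter (2.70, 0.0506), only the groups compared (2.72, 0.0628), the fits without 0P 3 or 0ND 1, and the replicate block (1.75, adjusted p = 0.0938). 0P 3 held 151 CPM, and the cause of the other losses was not tested. Leaving out 1 library at a time gave 4 to 6 called members in 0P vs 0ND and 4 to 5 in 8P vs 8ND. The count was lowest in 0P vs 0ND without 0ND 1 or 0P 3.

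Over all genes, 8ND vs 0ND had 10 calls in edgeR, 316 in DESeq2, 3 in limma-voom, 41 with no low count filter and 0 without 8ND 1 and 8ND 2 together, and 2 to 157 when 1 library was left out. In 8P vs 0P 0 genes were called by edgeR (2093 with an unadjusted p under 0.05) and 20 by DESeq2. The interaction had 0 calls by edgeR (2163 with an unadjusted p under 0.05) and 82 by DESeq2. Whether the replicate numbers pair ND and P libraries is not known. The correlation of deviations between ND and P libraries with the same number was -0.08 to 0.27. It was above 0.1 in 4 of 9 pairs, and 4 of 9 matched their own number best. Between diets, where the mice differ, it was -0.21 to -0.05 for ND and -0.18 to 0.24 for P. These values do not settle whether the numbers are a pairing. The main fit used no block, since the study's methods use none. With the replicate block 4 members were called in 0P vs 0ND and 4 in 8P vs 8ND, and 28 genes in 8ND vs 0ND. In the last comparison the block joined libraries of different diets, and so of different mice, by number alone. Its 28 calls therefore do not reflect a pairing. Low counts limit *Ptger2* and *Ptger3*.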
